A study of Homo sapiens with 6 samples.

Results

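The retinoblastoma (RB) pocket proteins, the MuvB complex and its activating partners B-Myb and FOXM1 were examined at the mRNA level in colorectal cancer cells with reduced GDPD5. The set holds 10 genes of the 79302 rows of the count table, taken by matching their official symbols to Ensembl identifiers, and all 10 had a row that passed the filter on low counts. They are the pocket protein genes RB1, RBL1 (p107) and RBL2 (p130), the MuvB core genes LIN9, LIN37, LIN52, LIN54 and RBBP4, and MYBL2 (B-Myb) and FOXM1. RNA-seq covered the HCT116 line, derived from a human colorectal carcinoma, with an shRNA against GDPD5 (shGDPD5, 3 libraries) or a control shRNA (shCtrl, 3 libraries). According to the study's text, both groups were radioresistant derivatives of the line, sequenced some hours after irradiation, whereas the sample labels give only the line and the shRNA. Which of the study's GDPD5 shRNAs was sequenced, and whether separate cultures were used within a group, was not stated in the sources used here, so the p-values measure only the spread between these libraries, which may be technical.

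Pocket proteins bind E2F transcription factors and recruit chromatin regulators that silence E2F target genes until cyclin-dependent kinases (CDKs) phosphorylate them. RB1 mainly holds the activator E2Fs, whereas RBL1 and RBL2 work with the repressor E2F4 and E2F5. In quiescent cells RBL2 or RBL1 joins E2F4, a DP protein and MuvB to form the DREAM complex, which represses both G1/S genes and G2/M genes. When cells enter the cycle, MuvB leaves the pocket protein, binds B-Myb in S phase and then brings FOXM1 to the CHR elements of G2/M promoters, where it activates the same genes that DREAM repressed. The genes below are ordered by these roles.

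The libraries held 16715447 to 18510670 counts in the shGDPD5 group and 17602320 to 18076702 in the shCtrl group, so depth differed little. The quasi-likelihood method of edgeR was applied to the 16755 rows that passed the filter. GDPD5 (ENSG00000158555), the targeted gene, had 5.44, 5.55 and 5.19 CPM (counts scaled to a common library total, TMM-normalized here and below) in the shGDPD5 libraries, against 8.33, 11.6 and 9.75 CPM in the shCtrl libraries, a log2 fold change of -0.88 (SE 0.13, adjusted p = 0.000117 from edgeR). Replicate 1 of shCtrl stood apart from the other libraries of its group on the second principal component (-28.3, against 14.8 and 13.3), and some results that depend on it are also given without it. Without it the log2 fold change of GDPD5 was -0.99. Of 9 markers of colorectal epithelium 7 were tested. All 7 were lower in shGDPD5 at an adjusted p under 0.05 from edgeR, against 30.1% of all tested genes. Log2 fold changes of the 7 ran from -0.83 to -0.16, and the groups overlapped for KRT8. Their summed counts, over all 9, were 47333 to 49992 in the shGDPD5 libraries and 57235 to 65990 in the shCtrl libraries, with CDX1 at 0 in every library and VIL1 at 0 to 10. For 10 markers of leukocytes, endothelium and fibroblasts the summed counts were 545 to 577 in shGDPD5 and 559 to 665 in shCtrl, with CD3E at 0 in every library. Of these, CD68 was lower (2.66 against 8.21 CPM in shCtrl). The part of these marker differences in the results below was not tested.

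Of the 10 genes, 8 rose and 1 fell in shGDPD5 at an adjusted p under 0.05 from edgeR, while over all tested genes 29.7% rose and 30.1% fell at that threshold. The groups did not overlap for 9 of the 10 genes, compared with 64.9% of all tested genes. The study's methods state 2 fold thresholds and a t test, whereas here each threshold was applied with an edgeR p under 0.05 before adjustment. With a log2 fold change of 1 or more in size, 2 of the 10 genes (MYBL2 and FOXM1) were past it upwards and 0 downwards, against 5.38% of all tested genes higher and 6.6% lower. With a fold over 1.5 or under 0.5, a rule added after the data were seen, RBL1 and LIN52 passed as well, making 4 upwards and 0 downwards, against 13.6% higher and 6.6% lower of all tested genes. The median log2 fold change was 0.51 over the 10 genes and 0.01 over all genes tested. In bulk RNA, more cells in a given phase of the cycle and more mRNA per cell cannot be told apart.

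**Figure D1:**
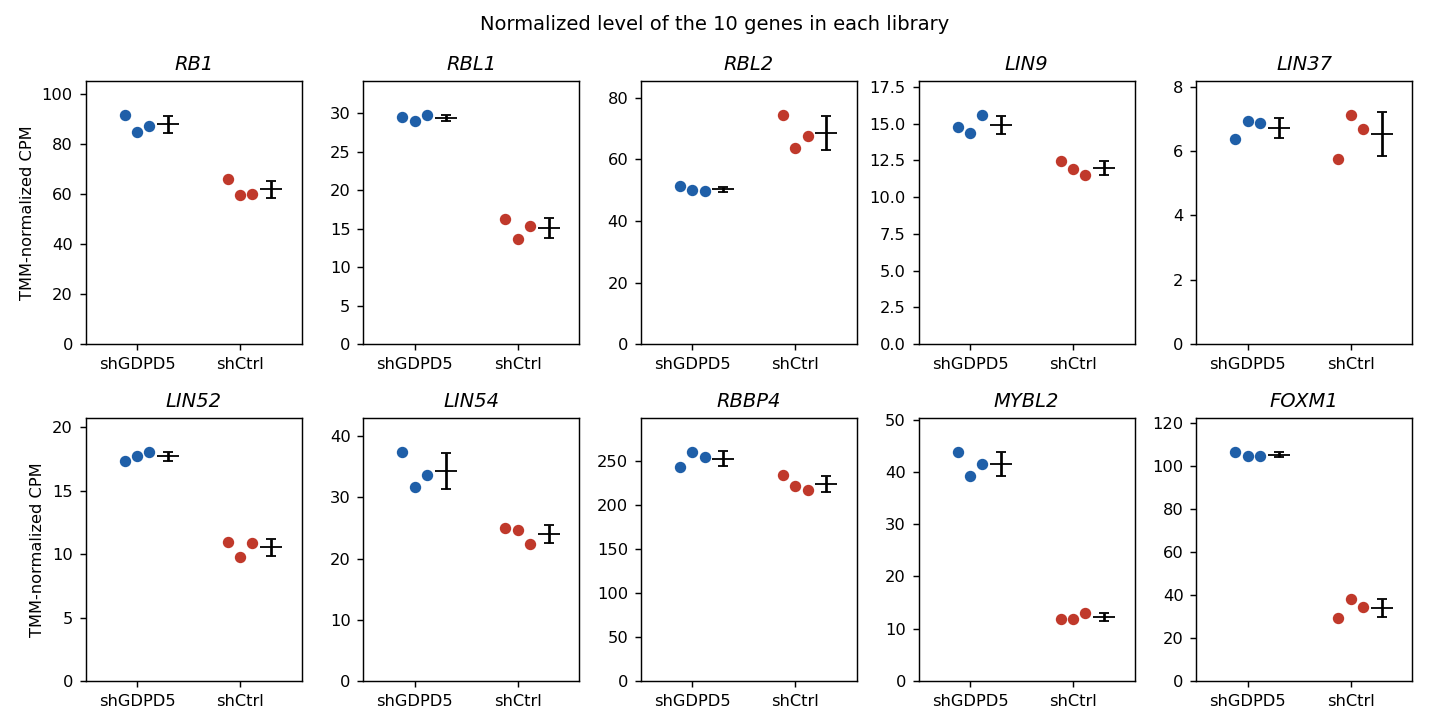
Level of each of the 10 genes in TMM-normalized CPM (y axes from 0) in 3 shGDPD5 (blue, left) and 3 shCtrl (red, right) libraries. Points are libraries and black marks the mean and SD. RBL2 lies lower in every shGDPD5 library, LIN37 overlaps between the groups, and the other 8 genes lie higher in every shGDPD5 library.

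The pocket protein genes moved in different directions. RBL1 and RB1 were higher in shGDPD5 cells, whereas RBL2, the pocket protein that predominates in quiescent cells, was lower. RBL1 (ENSG00000080839; chromosome 20, 36996349 to 37095995, minus strand, in GENCODE release 29 on GRCh38) had 29.5, 28.9 and 29.7 CPM in the shGDPD5 libraries, against 16.2, 13.7 and 15.3 CPM in the shCtrl libraries. The lowest shGDPD5 library thus lay well above the highest control library. The log2 fold change of RBL1 was 0.96 (SE 0.08, adjusted p = 3.59e-07 from edgeR), and 5.91% of tested genes had a larger value.

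RB1 (ENSG00000139687; chromosome 13, 48303726 to 48599436, plus strand), whose product restrains the activator E2Fs, had 91.5, 84.9 and 87.2 CPM in the shGDPD5 libraries, against 65.9, 59.7 and 60.1 CPM in the shCtrl libraries. Again no library of one group reached the other. Its log2 fold change was 0.50 (SE 0.06, adjusted p = 8.24e-06 from edgeR). RBL2 (ENSG00000103479; chromosome 16, 53433977 to 53491649, plus strand) had 51.3, 50.1 and 49.6 CPM in the shGDPD5 libraries, against 74.3, 63.6 and 67.8 CPM in the shCtrl libraries. The shGDPD5 libraries lay close together below a more widely spread control group, in which replicate 1 was highest. Its log2 fold change was -0.45 (SE 0.06, adjusted p = 5.56e-05 from edgeR), or -0.39 without shCtrl replicate 1, and 21.3% of tested genes had a lower value. Exons of RBL2 share 610 bases with those of AKTIP on the other strand, for which edgeR gave a log2 fold change of -0.30 (adjusted p = 0.00115). Another 721 bases are shared with AC007342.6, which held at most 7 counts in a library. Since the use of strand in counting was not stated in the sources used here, reads from that stretch cannot be assigned.

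These shifts changed the make-up of pocket protein mRNA within each library. Per kilobase of merged exon, RBL2 made up 26.8%, 27.5% and 26.8% of the summed RB1, RBL1 and RBL2 level in the shGDPD5 libraries, against 43.9%, 42.9% and 43.8% in the shCtrl libraries. The share of RBL1 was 18.9%, 19.6% and 19.7% in shGDPD5, against 11.8%, 11.4% and 12.2% in shCtrl. RB1 accounted for 52.9% to 54.3% in shGDPD5 and 44.1% to 45.7% in shCtrl. None of these 3 shares overlapped between the groups. With the longest coding transcript of each gene as its length, RBL2 took 30.1% to 30.9% in shGDPD5 and 46.6% to 47.7% in shCtrl.

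**Figure D2:**
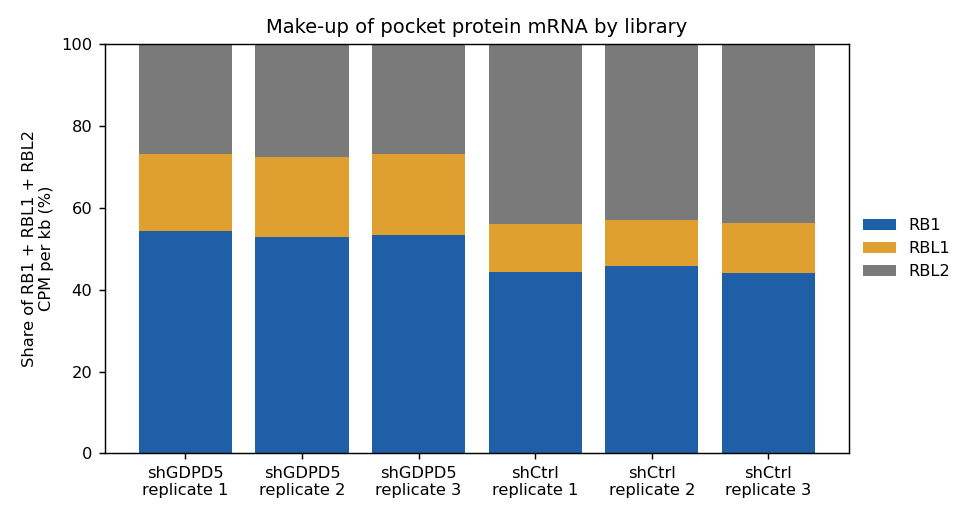
Share of RB1 (blue), RBL1 (orange) and RBL2 (grey) in their summed CPM per kilobase of merged exon (y axis, percent) in each library (x axis). The RBL2 segment is smaller and the RBL1 and RB1 segments larger in each of the 3 shGDPD5 bars than in any of the 3 shCtrl bars.

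Ratios within a library do not depend on scaling between libraries, and 5 were compared with a two-sided exact permutation test, which with 3 libraries against 3 cannot go below p = 0.1. The ratio of RBL1 to RBL2 CPM averaged 0.584 ± 0.013 in shGDPD5 and 0.220 ± 0.00555 in shCtrl (SD, n = 3 each), a difference of 1.41 on the log2 scale (exact permutation p = 0.1, adjusted over the 5 ratios 0.125). For RBL2 to RB1 the ratio was 0.573 ± 0.015 in shGDPD5 and 1.11 ± 0.036 in shCtrl (SD, n = 3 each), a log2 difference of -0.95 (exact permutation p = 0.1, adjusted 0.125). The ratio of RBL1 to RB1 was 0.334 ± 0.011 in shGDPD5 and 0.244 ± 0.013 in shCtrl, a log2 difference of 0.46 (exact permutation p = 0.1, adjusted 0.125, n = 3 each). In all 3 ratios the libraries of the groups did not overlap, so each p is the smallest possible here. Being made from the same 3 genes, these ratios are not independent of each other.

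The 100 bases before the RefSeq transcription start are shown for RBL1, RBL2, LIN52 and MYBL2, because RBL2 fell while the other genes rose and because E2F binds such promoter stretches. The RefSeq start differs from the GENCODE gene start. GENCODE begins MYBL2, LIN52 and RBL2 at 43667019, 74084796 and 53433977, so most or all of their stretches lie inside the GENCODE gene. The sequences are those of RefSeq on GRCh38.p14, written 5′ to 3′ on the strand of the gene. Capitals mark each match, on either strand, to an E2F core motif (TTCCCGC or TTGGCGC, and also TTCGCGC or else TTGCCGC, or the same with a final G in place of C). The version with a final G was added after the promoter of MYBL2 had been seen.
RBL1, chr20:37095998-37096097, minus strand: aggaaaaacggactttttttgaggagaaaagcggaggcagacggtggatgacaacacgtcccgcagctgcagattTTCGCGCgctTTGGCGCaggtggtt
MYBL2, chr20:43667014-43667113, plus strand: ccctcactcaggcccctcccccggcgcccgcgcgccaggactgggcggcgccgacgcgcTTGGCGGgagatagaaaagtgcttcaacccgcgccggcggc
LIN52, chr14:74084856-74084955, plus strand: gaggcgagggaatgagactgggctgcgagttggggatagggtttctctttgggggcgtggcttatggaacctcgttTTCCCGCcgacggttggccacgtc
RBL2, chr16:53434371-53434470, plus strand: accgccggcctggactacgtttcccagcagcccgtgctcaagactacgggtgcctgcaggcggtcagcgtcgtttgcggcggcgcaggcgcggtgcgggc

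RBL1 carried 2 neighbouring matches, starting 25 and 15 bases before the RefSeq start site, LIN52 carried 1 at 24 bases and MYBL2 carried 1, ending in G, at 41 bases, while RBL2 had none in its window. The RBL2 window lay wholly inside the GENCODE gene, so bases upstream of the GENCODE start were not searched. Windows of 300 bases (250 before the start site and 50 after it) that lay within 1000 bases of the GENCODE gene start were found for 7 of the 10 genes, namely RBL1, RBL2, LIN9, LIN37, LIN52, RBBP4 and MYBL2. The motif ending in C was present in 4 of these 7, in RBL1, LIN9, LIN52 and RBBP4, and in 13.1% of the 27303 RefSeq windows. All 4 had risen, but so had MYBL2, which like RBL2 and LIN37 had no match to it. With the final G allowed, MYBL2 was added, for 5 of 7 genes and 23.8% of all windows. As the motif was widened after the promoter of MYBL2 had been seen, nothing is read from that split. Among tested genes with a window, 37.0% of those with a match ending in C (2303 genes) and 30.4% of those without (8986 genes) were higher. With the final G allowed, these were 35.7% of 4131 genes and 29.5% of 7158 genes. The 27303 windows include genes that were not tested, and the limit of 1000 bases was applied only to the 10 genes. Shares of all windows are therefore not a like background for the 7. The CHR letters (TTTGAA or TTCGAA, either strand) occurred in the RBL2 window alone among the 7, starting 25 bases into the RefSeq transcript, and in 16.6% of all windows. A match to these letters is a description and not evidence of binding.

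In the MuvB core, 4 of 5 genes rose and LIN37 did not pass the test, with log2 fold changes between 0.05 and 0.75. LIN52 (ENSG00000205659; chromosome 14, 74084796 to 74201235, plus strand), the small subunit whose phosphorylation by DYRK1A lets MuvB bind RBL1 or RBL2, changed most within the core. It had 17.4, 17.8 and 18.0 CPM in the shGDPD5 libraries, against 10.9, 9.76 and 10.9 CPM in the shCtrl libraries. Both groups were tight and far apart, with a log2 fold change of 0.75 (SE 0.09, adjusted p = 9.46e-06 from edgeR).

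LIN54 (ENSG00000189308; chromosome 4, 82909973 to 83012926, minus strand), the subunit that contacts CHR DNA, had 37.4, 31.7 and 33.7 CPM in the shGDPD5 libraries, against 25.0, 24.6 and 22.3 CPM in the shCtrl libraries. The spread within shGDPD5 was the widest of that group (coefficient of variation 8.51%), yet its lowest library lay above the highest control. The log2 fold change was 0.51 (SE 0.08, adjusted p = 9.78e-05 from edgeR). LIN9 (ENSG00000183814; chromosome 1, 226231149 to 226309869, minus strand), which links MuvB to B-Myb, had 14.8, 14.4 and 15.6 CPM in the shGDPD5 libraries, against 12.5, 11.9 and 11.5 CPM in the shCtrl libraries. The groups did not overlap, although the gap was narrow. The log2 fold change was 0.32 (SE 0.09, adjusted p = 0.00681 from edgeR).

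RBBP4 (ENSG00000162521; chromosome 1, 32651142 to 32686211, plus strand) encodes a histone-binding protein that MuvB shares with several chromatin complexes. It had 243.2, 260.2 and 254.1 CPM in the shGDPD5 libraries, against 234.5, 222.1 and 216.7 CPM in the shCtrl libraries. The lowest shGDPD5 library lay only slightly above the highest control library. Its log2 fold change of 0.17 (SE 0.05, adjusted p = 0.00815 from edgeR) was the smallest of those that passed, and without shGDPD5 replicate 2 it did not pass (0.14, adjusted p = 0.055 from edgeR). The annotation holds 6 pseudogenes named after RBBP4, and its exons share 1706 bases with SYNC on the other strand, which had 2.59 CPM in shGDPD5 and 13.7 CPM in shCtrl, so its reads are uncertain. For comparison, its close paralog RBBP7 averaged 177.6 ± 2.95 CPM in shGDPD5 and 95.3 ± 1.56 CPM in shCtrl (SD, n = 3 each), a log2 fold change of 0.90 (adjusted p = 5.53e-09 from edgeR).

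LIN37 (ENSG00000267796; chromosome 19, 35748361 to 35754519, plus strand), a subunit needed for repression by DREAM but not for activation by MuvB, had 6.37, 6.94 and 6.88 CPM in the shGDPD5 libraries, against 5.77, 7.11 and 6.69 CPM in the shCtrl libraries. All shGDPD5 values lay inside the control range. Its log2 fold change was 0.05 (SE 0.12, adjusted p = 0.768 from edgeR), or -0.04 without shCtrl replicate 1, and with 99 to 130 counts per library it was the least covered of the 10 genes. Annotated genes share 26.7% of its exon bases on the same strand and 41.8% on the other strand, but they held at most 11 counts in any library.

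**Figure D3:**
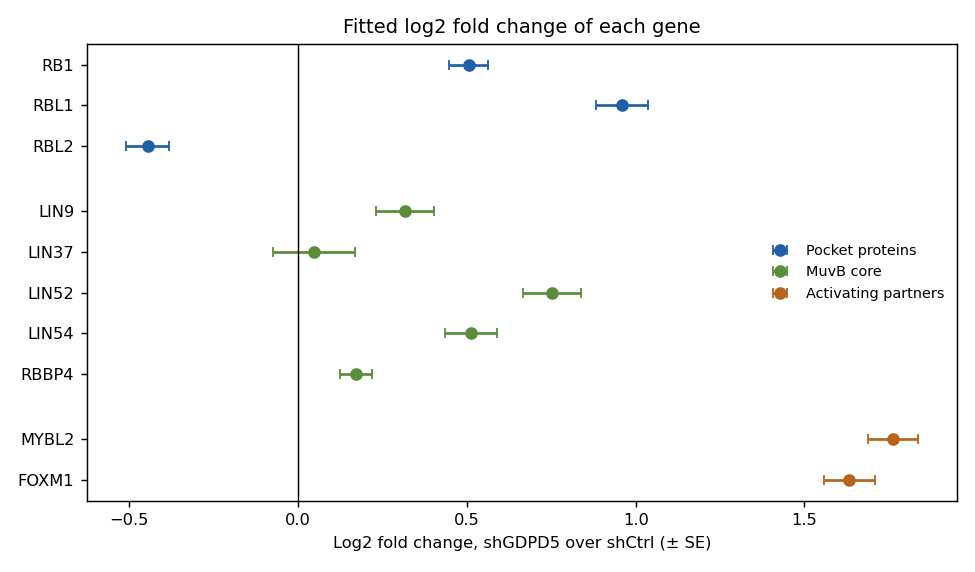
Log2 fold change of each gene, shGDPD5 over shCtrl (x axis), from edgeR, with bars of 1 SE, for pocket proteins (blue), the MuvB core (green) and the activating partners MYBL2 and FOXM1 (brown). MYBL2 and FOXM1 lie farthest to the right, at 1.76 and 1.63, and RBL2 alone lies left of 0 at -0.45.

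The activating partners of MuvB showed the largest increases of the set, both more than 3-fold. MYBL2 (ENSG00000101057; chromosome 20, 43667019 to 43716496, plus strand) had 43.8, 39.3 and 41.5 CPM in the shGDPD5 libraries, against 11.8, 11.9 and 13.03 CPM in the shCtrl libraries. The groups were far apart, with little spread in either. The mean was 3.40 times that of shCtrl, and the log2 fold change 1.76 (SE 0.07, adjusted p = 1.20e-09 from edgeR). Only 0.961% of tested genes had a larger value. The related MYBL1 (A-Myb) and MYB (c-Myb) genes rose as well, by 2.19 (adjusted p = 1.16e-09) and 2.10 (adjusted p = 1.03e-06) on the log2 scale in edgeR.

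FOXM1 (ENSG00000111206; chromosome 12, 2857681 to 2877155, minus strand) had 106.4, 104.7 and 104.7 CPM in the shGDPD5 libraries, against 29.3, 38.0 and 34.5 CPM in the shCtrl libraries. The shGDPD5 libraries were almost alike (coefficient of variation 0.965%), and the control libraries varied more (12.9%), with replicate 1 lowest. The mean was 3.10 times that of shCtrl. The log2 fold change was 1.63 (SE 0.08, adjusted p = 3.16e-09 from edgeR), or 1.53 without shCtrl replicate 1. Exons of ITFG2 on the other strand cover 15.9% of those of FOXM1, and ITFG2 had 13.1 CPM in shGDPD5 and 10.7 CPM in shCtrl. As for RBL2, reads from the shared stretch cannot be assigned, and their part in the FOXM1 values was not tested.

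Relative to each other, the activating partners differed little between the groups. The ratio of FOXM1 to MYBL2 CPM was 2.54 ± 0.12 in shGDPD5 and 2.78 ± 0.37 in shCtrl (SD, n = 3 each), a log2 difference of -0.12 that lay within the spread of the libraries (exact permutation p = 0.5, adjusted over the 5 ratios 0.5). Against RBL2, the only gene of the set that fell, the change was large. RBL1, which can also join DREAM, rose by 0.96 on the log2 scale, and MYBL2 was not compared with it. The ratio of MYBL2 to RBL2 CPM was 0.825 ± 0.036 in shGDPD5 and 0.179 ± 0.018 in shCtrl (SD, n = 3 each), a log2 difference of 2.21 (exact permutation p = 0.1, adjusted 0.125), or 2.12 without shCtrl replicate 1. Library by library, the log2 ratio of MYBL2 to RBL2 was -0.23, -0.35 and -0.26 in shGDPD5, against -2.66, -2.42 and -2.38 in shCtrl.

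The order of levels within the set also differed between the groups. Per kilobase of merged exon in GENCODE release 29, RBBP4 had the highest level in both (26.7 ± 0.91 CPM per kb in shGDPD5 and 23.7 ± 0.96 in shCtrl, SD, n = 3 each). In shGDPD5 it was followed by FOXM1 (21.5 ± 0.21), MYBL2 (14.96 ± 0.81) and RB1 (13.6 ± 0.52), of which MYBL2 and RB1 overlapped. RBL2 (6.87 ± 0.12) came next, then LIN54, RBL1 and LIN52 (5.06, 4.93 and 4.801), which overlapped with their neighbours, and LIN9 (3.36) and LIN37 (2.39) were lowest. In shCtrl, RB1 (9.60 ± 0.54) and RBL2 (9.37 ± 0.74) followed RBBP4 and overlapped, ahead of FOXM1 (6.92 ± 0.89), MYBL2 (4.41 ± 0.25) and LIN54 (3.54 ± 0.22). LIN52, LIN9, RBL1 and LIN37, at 2.85 to 2.31, overlapped with their neighbours in that order. Levels per length depend on the annotation, and that behind the counts was not stated in the sources used here. With the longest coding transcript as length, RBBP4 and FOXM1 stayed the highest in shGDPD5, but RB1 (18.3 ± 0.70) lay above MYBL2 (15.4 ± 0.83) without overlap, and LIN37 stood at rank 7, above LIN54, RBL1 and LIN9. In shCtrl with that length RBBP4 stayed first, RBL2 (13.97 ± 1.10) lay above RB1 (12.9 ± 0.72) with overlap, and LIN37 (5.67 ± 0.60) stood at rank 5, above MYBL2 (4.52 ± 0.26). The order of these genes therefore depends on the length used.

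The genes that act on pocket proteins, or through them, were then described by lists. The counts are read against the 29.7% of all tested genes that were higher and the 30.1% that were lower. E2F and DP factors, the partners of pocket proteins, numbered 10 tested genes of 11 (TFDP3 had no counts), of which 7 rose and 1 fell, with a median log2 fold change of 0.61 (all tested genes 0.01). The activators E2F1 (20.8 ± 0.65 CPM in shGDPD5 and 7.31 ± 0.57 in shCtrl, SD, n = 3 each) and E2F2 rose by 1.51 and 2.28 on the log2 scale, the atypical repressors E2F8 and E2F7 by 1.43 and 0.82, the DP subunit gene TFDP1 by 0.75 and E2F3 by 0.47. The repressors that pair with RBL1 and RBL2 moved apart. E2F4 rose by 0.26 (adjusted p = 0.0153) and E2F5 had -0.42 (adjusted p = 0.000428), both from edgeR, while E2F6 and TFDP2 did not pass (-0.01 and -0.10). The size of the rise of E2F4 leans on shCtrl replicate 1, at 52.1 CPM. The other controls had 69.1 and 63.5 CPM, and the shGDPD5 mean was 73.9 CPM. Every shGDPD5 library lay above every control for E2F4, and without shCtrl replicate 1 the list still had 7 genes higher.

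The mRNA of most cyclins and CDKs that inactivate pocket proteins rose. Of 8 tested G1 and S cyclins and CDKs (CCND2 and CCNA1, with at most 1 count in a library, were not tested), 6 rose and 1 fell, with a median log2 fold change of 0.90. CCNE2, CCNA2, CCND3 and CDK2 rose by 1.76, 1.18, 1.18 and 1.08 on the log2 scale, CDK6 by 0.72 and CCNE1 by 0.27. CCND1, the cyclin D1 gene, had 663.5 CPM in shGDPD5 and 773.2 CPM in shCtrl, a log2 fold change of -0.22 (adjusted p = 0.0005 from edgeR), and CDK4 had -0.05 (adjusted p = 0.49 from edgeR).

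The CDK inhibitors went both ways, with 3 of 7 higher, 2 lower and a median of -0.09, shares near those of all tested genes. The INK4 gene CDKN2C (p18) had 7.19, 6.99 and 6.82 CPM in shGDPD5 and averaged 0.90 CPM in shCtrl, with only 14 to 17 control counts, a log2 fold change of 2.95 (SE 0.17, adjusted p = 1.53e-08 from edgeR). The INK4 gene CDKN2B (p15) averaged 5.83 CPM in shGDPD5 and 25.6 CPM in shCtrl, a log2 fold change of -2.14 (adjusted p = 8.85e-10 from edgeR). CDKN2D (p19) and CDKN1A (p21, the p53 target through which DREAM is engaged) rose by 0.94 and 0.48. CDKN1C had -0.50 (adjusted p = 0.0432 from edgeR), a call lost with DESeq2 and without shGDPD5 replicate 2, shCtrl replicate 2 or shCtrl replicate 3. CDKN1B and CDKN2A did not pass (-0.09 and -0.24), but with RLE factors in place of TMM 3 of the 7 inhibitors were lower.

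Among 10 kinases and phosphatases that set DREAM assembly and pocket protein phosphorylation, 2 rose, 3 fell and 5 did not pass, with a median of 0.00, so that their calls were no more frequent than among all tested genes. DYRK1A, the LIN52 kinase, had 76.8 CPM in shGDPD5 and 85.5 CPM in shCtrl, a log2 fold change of -0.16 (adjusted p = 0.0131 from edgeR). The catalytic subunit genes of protein phosphatase 1 differed in sign, with PPP1CC at 0.48, PPP1CA at 0.32 and PPP1CB at -0.44, all past the threshold. PPP2CB had -0.12 (adjusted p = 0.0381 from edgeR), and neither it nor DYRK1A passed without shGDPD5 replicate 1 or 3, which left 1 of 10 genes lower. DYRK1B, LATS1, LATS2, PPP2CA and PPP2R2A did not pass with all libraries. Of 13 corepressor genes, 7 rose and 1 fell, with a median of 0.24. The histone methyltransferase gene SUV39H1 (16.1 CPM in shGDPD5 and 5.21 CPM in shCtrl) rose by 1.62, the Sin3 subunit SAP30 by 0.75 and the deacetylase HDAC1 by 0.51, whereas HDAC2 had -0.42 (adjusted p = 8.05e-06 from edgeR). KDM5A (0.47), HDAC3 (0.36), SIN3A (0.27) and SIN3B (0.24) also rose, and SMARCA4, SMARCA2, ARID4B, SAP18 and ARID4A did not pass (0.18, -0.19, 0.06, -0.05 and 0.02).

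**Figure D4:**
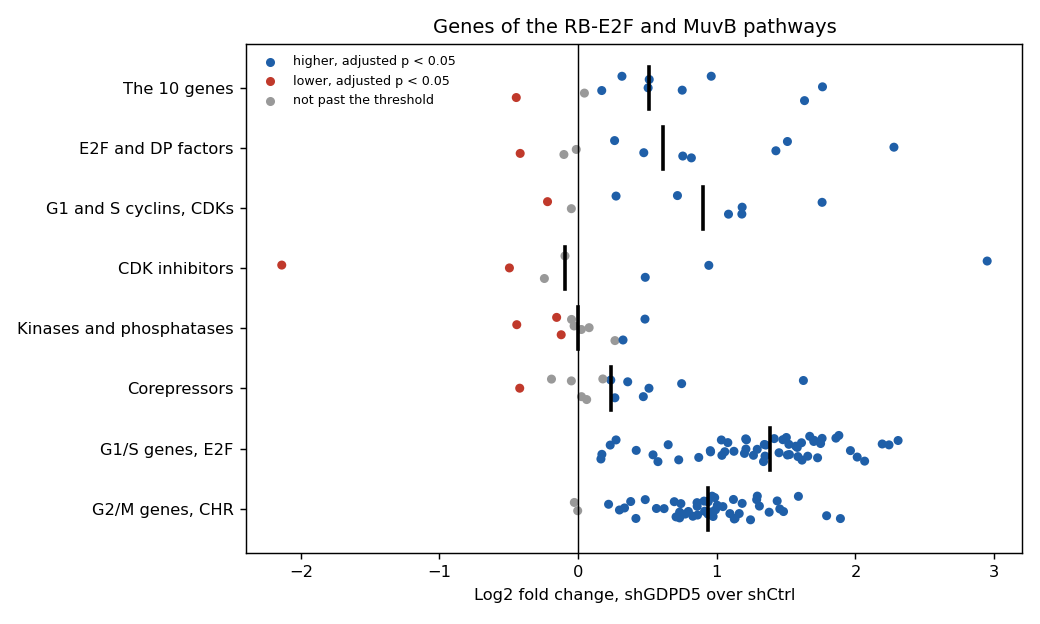
Log2 fold change, shGDPD5 over shCtrl (x axis), of tested genes in 8 lists (y axis). Each point is a gene, with blue for higher, red for lower (edgeR, adjusted p under 0.05) and grey for neither, spread vertically only for legibility, and black bars are medians. The 54 G1/S genes all lie right of 0, and the CDK inhibitors reach from -2.14 to 2.95.

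The targets of these regulators were higher almost throughout. Of 54 G1/S genes with E2F sites, all tested, 54 rose and 0 fell, with a median log2 fold change of 1.38, from 0.16 (MSH6) to 2.31 (CDC45). The 4 with the smallest p were TYMS (2.07), RRM1 (1.96), PCNA (1.86) and TK1 (2.19), which serve nucleotide supply and the replication fork. Of 51 G2/M genes that DREAM represses and B-Myb and FOXM1 activate, 49 rose and 0 fell, with a median of 0.94. MKI67 (1.45), ESPL1 (1.79), GTSE1 (1.89) and BUB1B (1.38) had the smallest p, and CKS1B (-0.03) and CDC25B (0.00) did not pass. FOXM1 and MYBL2 therefore had fold changes above the median of either list. Similar lists had been seen in these data before, so their direction is not independent support, and E2F1, CCNE1, CCNE2 and CCNA2 each stand in more than one list. The E2F core ending in C was found in 35 of 47 windows of the G1/S list (74.5%) and in 10 of 43 of the G2/M list (23.3%), and the CHR letters in 3 of 47 (6.38%) and 30 of 43 (69.8%).

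Over the 6 libraries, the genes with patterns most like those of 3 members were also listed, by Pearson correlation of log2 CPM among 11607 genes with a mean of at least 5 CPM. They were AGTPBP1, TMEM131 and LYSMD3 for RBL2, TRRAP, TCHP and CENPM for MYBL2, and ATP6V1H, TFDP1 and MYO19 for FOXM1, all with r of at least 0.999. Because the groups separate, such values are common: 141, 503 and 426 genes passed r = 0.99 with RBL2, MYBL2 and FOXM1 in turn. TFDP1 is the only one of these 9 genes in the lists above.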

How the data were processed

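Total RNA of 6 HCT116 libraries (3 shGDPD5, 3 shCtrl) was sequenced by a company, and estimated counts for all genes were deposited by the authors as 1 table. Aligner, counting tool, strand use and genome build: not given in the sources used here. Groups were taken from the sample labels.

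Estimated counts were rounded to whole numbers (largest change 0.5), filtered with edgeR 4.0.16 (minimum count 10) in R 4.3.3, TMM-normalized and tested over 16755 genes with the quasi-likelihood test and Benjamini-Hochberg adjustment, with group as the only term. The procedure was also run on simulated data in which few genes changed, unlike these data, so that run does not gauge the error rate here. Total counts of 16715447 to 18510670 limit precision for genes of few counts. SE is the log2 fold change over the root of F.

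Members and lists were chosen with earlier results of these data known. Named were all members, GDPD5, up to 4 genes per list with the smallest adjusted p under 0.05, all genes of lists of at most 13, and the 3 genes most correlated with RBL2, MYBL2 and FOXM1. The cell type marker lists are an exception, and only some of their genes are named. Genes named outside this rule (the extremes and the genes that did not pass in the G1/S and G2/M lists, overlapping genes) were chosen after their values were seen. Alternatives were RLE factors, DESeq2 1.42.0, voom of limma 3.58.1, other filters, a replicate block, each library left out, and the study's 2 fold thresholds (the one of 1.5 and 0.5 added after seeing the data). Positions and lengths are from GENCODE release 29, promoters from RefSeq.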

Additional observations from a re-analysis of the deposited data

How the results depend on the processing

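Of 420 recomputed values, 401 kept their direction and side of the threshold or stayed within 1.5 times the count. They include 8 alternatives for each of the 5 ratios. The exact permutation p of a ratio cannot go below 0.1, so only a change of direction could be seen there. With an unadjusted p and a log2 fold change of at least 1 in size, 902 genes were higher and 1105 lower, of the 10 genes 2 and 0. With a fold over 1.5 or under 0.5 instead, a rule added after the data were seen, these were 2273 and 1105, and 4 and 0. Both rules drop the p adjustment and add a fold limit. DESeq2 called 1 CDK inhibitor lower and edgeR with RLE factors called 3, against 2 in the main fit. Leaving out each library in turn, the log2 fold change of LIN37 ran from -0.04 to 0.11, with the direction turned (-0.0395) without shCtrl replicate 1. That of RBBP4 ran from 0.14 to 0.20 and did not pass without shGDPD5 replicate 2. The number of lower genes ran from 1 to 2 for cyclins and CDKs (2 without shCtrl replicate 1), 1 to 2 for CDK inhibitors (1 without shCtrl replicate 2, shCtrl replicate 3 or shGDPD5 replicate 2), 1 to 3 for kinases and phosphatases (1 without shGDPD5 replicate 1 or 3) and 1 to 2 for corepressors (2 without shCtrl replicate 1 or 3). The cause was not tested. The numbers 1 to 3 appear in both groups, but same-numbered libraries did not deviate together (r = -0.07, -0.05 and -0.04). With a replicate block 4792 genes were higher and 4853 lower, and 8 and 1 of the 10 genes. Of the 10 genes LIN37, with the fewest counts, is limited most by depth.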
